A study of Mus musculus with 16 samples.

Results

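The genes of cholesterol synthesis and sterol regulation were followed in TM4, a permanent cell line that comes from Sertoli cells of the mouse testis. The group was chosen by gene name and holds 32 of the 56748 genes of the count table: 8 enzymes from acetyl-CoA to the isoprenoid diphosphates, 12 enzymes from squalene to cholesterol, 5 regulators of the pathway and 7 genes of sterol transport, storage and turnover. The cells were grown with serum and transiently transfected with a lipid reagent and 2.5 µg of plasmid per well, and RNA was taken 24 h later. The plasmid was pcDNA3.1 without insert (EV, 6 samples), or carried the killifish gene *gdf6Y* (5 samples) or its mutant variant *gdf6Y* del9 (5 samples), which has a short deletion in the sequence for the prodomain. *gdf6Y* encodes a BMP-type ligand and is the sex-determining gene of the killifish, and comparing it with EV and with *gdf6Y* del9 asks which mouse genes respond to it. The table lists mouse genes, so the level of the plasmid transcripts was not measured here. All groups share the line, the transfection reagent and the plasmid dose. The labels do not say whether samples of a group came from separate cultures on separate days. The p-values rest on the spread between these samples, moderated across genes, and this spread may be technical.

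Cholesterol is made from acetyl-CoA through mevalonate, farnesyl diphosphate, squalene and lanosterol. When the membrane of the endoplasmic reticulum is low in sterol, SCAP escorts the membrane-bound SREBP proteins to the Golgi, where they are cut and released as transcription factors of the synthesis genes. INSIG proteins hold the SCAP-SREBP complex back when sterols are high, and oxysterols then switch on export genes through LXR. Sertoli cells are known to make cholesterol and to take up and recycle lipids of germ cells.

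Most of the pathway was expressed at nearly the same level in all 3 groups. *Lss*, lanosterol synthase, and *Npc1*, which exports cholesterol from lysosomes, were lower with either plasmid than with EV, by little. *Lss* fell by 9.06% with *gdf6Y* and fell by 9.22% with *gdf6Y* del9, and *Npc1* fell by 9.77% and fell by 12.3%. In bulk RNA, fewer cells of a kind and less RNA per cell cannot be told apart. With *gdf6Y* del9, the levels of *Hmgcs1*, *Stard4* and *Npc2* were also lower and that of *Mvk* was higher. No member was called between *gdf6Y* and *gdf6Y* del9. In all, 6 members were called in at least 1 comparison, 25 were tested and called in none, and *Mylip* had no count. Of the tested members, 6.45% were called with *gdf6Y* against EV and 19.4% with *gdf6Y* del9 against EV. Of all tested genes 5.08% and 9.25% were called, and of those whose mean count reached 100 12.9% and 21.7%.

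The promoters of the 3 called enzymes were read from RefSeq on the build GRCm38.p6, in which 26 of the 32 members matched an entry. They are shown to let the letters bound by SREBP and its partner NF-Y be seen beside the gene's values. Capitals mark the SREBP letters TCACNCCAC and the NF-Y letters CCAAT, which read ATTGG on the other strand, and all 3 stretches lie on the plus strand.
*Hmgcs1*, chr13:119690101-119690350: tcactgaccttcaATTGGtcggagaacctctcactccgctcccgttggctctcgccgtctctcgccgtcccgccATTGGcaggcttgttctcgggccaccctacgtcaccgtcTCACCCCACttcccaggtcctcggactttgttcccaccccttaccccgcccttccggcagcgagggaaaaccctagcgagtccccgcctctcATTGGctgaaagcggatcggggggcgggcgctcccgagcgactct
*Lss*, chr10:76531355-76531554: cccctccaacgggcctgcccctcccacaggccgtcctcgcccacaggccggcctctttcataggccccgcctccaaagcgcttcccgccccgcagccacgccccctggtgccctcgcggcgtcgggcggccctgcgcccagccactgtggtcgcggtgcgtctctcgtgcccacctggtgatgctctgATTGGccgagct
*Mvk*, chr5:114444113-114444201: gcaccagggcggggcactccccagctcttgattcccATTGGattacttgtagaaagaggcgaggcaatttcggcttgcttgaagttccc

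The *Hmgcs1* stretch holds the SREBP letters 137 bases before the gene's start, between NF-Y letters that begin 176 and 45 bases before it. The *Lss* stretch, the first 200 of the 250 bases before the start, holds 1 match to the NF-Y letters, 62 bases before the start. The *Lss* and *Mvk* stretches were limited to bases outside exons, for *Mvk* also those of its neighbour. The 1 match in the *Mvk* stretch lies 120 bases before the start. Within 250 bases of the start, *Mvk* has 4 more matches to the NF-Y letters, at 173, 67, 50 and 14 bases, outside the printed stretch. In the 250 bases before the start, the NF-Y letters were found on either strand in 16 of the 17 matched enzymes (94.1%), and in 37.5% of all 27025 genes of the table. The letters of the Sp1 box, GGGCGG, were found in 15 of these enzymes (88.2%), against 35.4% of all genes. The exact SREBP letters were found in 1 enzyme, *Hmgcs1*, against 1.22% of all genes. Variants of these letters were not searched, so the count does not show that the other enzymes lack an SREBP site. The E-box letters CACGTG were found in 3 of the 17 enzymes (17.6%), against 6.86% of genes. The LXR direct repeat, AGGTCA followed after 4 bases by AGGTCA, was found in none of the 26 members and in 0.0148% of genes. Every motif was searched on both strands without mismatches, and none is contained in another.

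Of the 32 members, 31 had a count in at least 1 sample and 29 had a mean count of at least 10. Between 21486850 and 26444903 reads per sample were counted on genes. Levels below are normalized counts, counts brought to a common effective library size, the mean over all 16 samples, after scaling with TMM, a method that balances the composition of libraries. Per kilobase of the canonical transcript, the EV level was highest for *Srebf2*, the SREBP that drives cholesterol synthesis, with an RPKM (reads per kilobase, relative to the reads counted in the sample) of 78.2. Next were *Msmo1* with 75.9 and *Sqle* with 68.3, which act on methyl sterols and on squalene. *Npc2*, which hands cholesterol to NPC1 inside the lysosome, reached 66.8 and the sterol carrier *Stard4* 40.4. *Srebf1*, whose products favour fatty acid synthesis, was at 17.6. The level of *Srebf2* was thus 4.44 times that of *Srebf1*, or 3.28 times per total exonic length. Of the enzymes, *Mvk* with 6.70, *Hsd17b7* with 5.78 and *Tm7sf2* with 1.92 were lowest. Per total exonic length the lowest were *Mvk* with 2.95, *Fdps* with 1.94 and *Tm7sf2* with 0.583. The lengths come from another annotation than the one used for counting, and with the total exonic length *Npc2* came first with 43.5 and *Srebf2* second with 42.5.

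*Tm7sf2* and *Lbr* encode the 2 sterol C14-reductases, which carry out the same step. Their EV levels differed by 10.2 times per length of the canonical transcript, or 14.9 times per exonic length, with *Lbr* the higher. *Tm7sf2* had 70.7 ± 14.9 normalized counts with EV (SD, n = 6), 68.3 ± 3.97 with *gdf6Y* (SD, n = 5) and 61.3 ± 8.50 with *gdf6Y* del9 (SD, n = 5). By gene span, introns included, *Tm7sf2* overlaps *Vps51* and *Lbr* overlaps *Gm55354* on the same strand. *Lbr*, which is also the lamin B receptor, had 2503 ± 95.4 normalized counts with EV. It was at 2449 ± 80.1 with *gdf6Y* and 2418 ± 95.9 with *gdf6Y* del9.

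The sterol exporters were almost without reads. *Abca1*, an LXR target that loads cholesterol onto lipoprotein particles, had 5 reads over all 16 samples and none in 12 of them. *Abcg1*, which acts after it, had between 1 and 13 reads per sample and 105 in all. No read was counted on *Mylip*, an LXR-induced ubiquitin ligase for lipoprotein receptors, in any of the 16 samples. A count of 0 allows up to 3 reads, or a CPM of 0.14 in the sample with the fewest reads. These 3 members were too low for a fold change. By the gene spans, introns included, of the annotation used for lengths, *Mylip* overlaps *Gm56579* and *Abcg1* overlaps *Gm55872* on the same strand. Reads that overlapped several genes were discarded in counting, and whether this lowered the counts of *Mylip* and *Abcg1* was not tested. The esterifying enzyme *Soat1* was at 3344 ± 60.5 (SD, n = 6) with EV, 3415 ± 104 with *gdf6Y* and 3331 ± 150 with *gdf6Y* del9.

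Some levels are uncertain, since reads that map to several places were discarded. In 5 members, at least 40% of the transcript has a copy elsewhere in GRCm39 that is at least 96% identical over the length of a read. The share was 94.2% for *Idi1*, 89.4% for *Fdps*, 73.1% for *Insig1*, 48.0% for *Fdft1* and 44.6% for *Acat2*. It was 7.5% for *Hmgcs1* and 2.6% for *Mvk*, and 0 for *Lss*, *Npc1*, *Npc2* and *Stard4*.

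In *gdf6Y* against EV, 2 of the 31 tested members were called lower (quasi-likelihood test in edgeR, p-values adjusted over all genes by Benjamini-Hochberg and held to 0.05) and 0 were called higher, with DESeq2 likewise. In this comparison 5.08% of the 26316 genes tested were called, 3.38% lower and 1.7% higher. The share was 12.9% in the 10062 genes whose mean count reached 100, the range in which 28 of the members lie. The members' share, 6.45%, lies near the first and below the second. At an unadjusted p below 0.05 there were 4 members, of which 1 (*Mvk*) was higher, against 14.3% of all tested genes. The median log2 fold change of the 28 members was -0.02, and that of all genes in this range was 0.00.

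*Lss* (ENSMUSG00000033105, GRCm39 chr10:76367298-76392976) turns oxidosqualene into lanosterol, the first sterol of the pathway. Its normalized counts were 1933, 1783, 1883, 1939, 1818 and 1927 in EV samples 1 to 6. They were 1858, 1629, 1719, 1682 and 1650 with *gdf6Y*, and 1792, 1632, 1671, 1741 and 1683 with *gdf6Y* del9. Replicate 1 was the highest of each plasmid group, and it alone reached into the EV range. Means were 1880 ± 66.1 (SD, n = 6), 1708 ± 90.7 (SD, n = 5) and 1704 ± 62.6 (SD, n = 5). The log2 fold change was -0.14 with *gdf6Y* (SE 0.033, edgeR adjusted p = 0.00166) and -0.14 with *gdf6Y* del9 (SE 0.0322, edgeR adjusted p = 0.000482), both against the same EV samples. Between the plasmids it was 0.01, with a 95% interval from -0.06 to 0.08.

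*Npc1* (ENSMUSG00000024413, GRCm39 chr18:12322749-12369550) encodes the membrane protein through which cholesterol leaves late endosomes and lysosomes. EV samples 1 to 6 had 1415, 1324, 1431, 1396, 1322 and 1330 normalized counts. *gdf6Y* samples had 1294, 1217, 1283, 1266 and 1110, and *gdf6Y* del9 samples had 1212, 1192, 1222, 1211 and 1162. It was the only member at a mean count of at least 10 whose samples did not overlap with EV, all lower, with either plasmid. For *gdf6Y*, 1.35% of all tested genes were lower without overlap, and for *gdf6Y* del9 1.6%. These shares include genes with few reads. The share among genes counted as well as *Npc1* is not given here and may be higher. Means were 1369 ± 49.8 (SD, n = 6), 1234 ± 75.2 (SD, n = 5) and 1200 ± 23.9 (SD, n = 5). *Npc1* fell by 0.15 on the log2 scale with *gdf6Y* (SE 0.0355, edgeR adjusted p = 0.00154), and by 0.19 with *gdf6Y* del9 (SE 0.0349, edgeR adjusted p = 4.86e-06). Without *gdf6Y* replicate 5, the lowest sample, the first of these was no longer called (adjusted p = 0.0657). The difference between the plasmids was 0.05 with a 95% interval from -0.03 to 0.12.

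**Figure D1:**
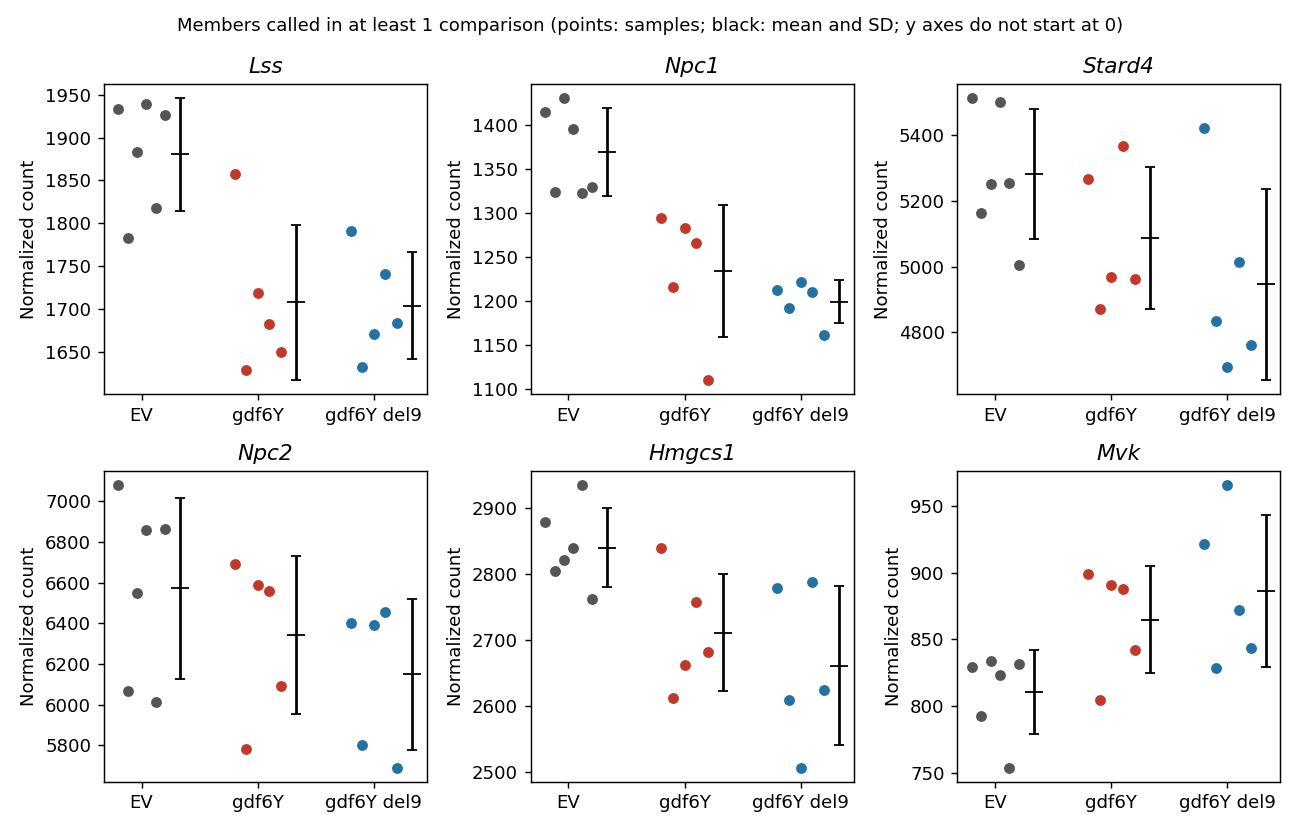
Normalized counts of the 6 members called in any comparison, 1 point per sample, with the group mean and SD, for EV, *gdf6Y* and *gdf6Y* del9. *Npc1* samples lie between 1322 and 1431 with EV and at or below 1294 with either plasmid, while the groups overlap for the other 5 genes.

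In *gdf6Y* del9 against EV, 6 of 31 members were called, 5 lower and 1 higher. DESeq2 called 4 lower, without *Npc2*, and 1 higher. Here 9.25% of the 26226 genes tested were called, and 21.7% of the 10085 genes whose mean count reached 100. The members' share was 19.4%. Lower calls made up 4.43% of all tested genes and higher calls 4.82%, or 9.4% and 12.3% in the range of 28 of the members. The median log2 fold change was -0.03 over those 28 members and 0.01 over all genes in this range.

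At the entry of the pathway, *Hmgcs1* (ENSMUSG00000093930, GRCm39 chr13:120151915-120170470) makes HMG-CoA. It had 2879, 2804, 2822, 2839, 2934 and 2762 normalized counts in EV samples and 2778, 2609, 2507, 2787 and 2625 in *gdf6Y* del9 samples, of which replicates 1 and 4 lay within the EV range. With *gdf6Y* it had 2839, 2612, 2662, 2758 and 2682. The change with *gdf6Y* del9 was -0.09 (SE 0.0295, edgeR adjusted p = 0.0271), and that with *gdf6Y* was -0.07 (edgeR adjusted p = 0.265). *Mvk* (ENSMUSG00000041939, GRCm39 chr5:114582267-114601803), mevalonate kinase, was the only member called higher. Its EV samples had 829, 792, 833, 823, 754 and 831, its *gdf6Y* del9 samples 921, 829, 966, 872 and 844 and its *gdf6Y* samples 899, 805, 890, 888 and 842. All but replicate 2 of either plasmid lay above every EV sample. *Mvk* rose by 0.13 with *gdf6Y* del9 (SE 0.0397, edgeR adjusted p = 0.0154), and its value with *gdf6Y* was 0.10 (edgeR adjusted p = 0.186). The remaining mevalonate enzymes were not called in any comparison: *Acat2*, *Pmvk*, *Mvd*, *Idi1*, *Fdps* and *Ggps1*.

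Of the transport genes, *Stard4*, a soluble carrier that moves cholesterol between membranes, had 5513, 5164, 5250, 5501, 5254 and 5006 normalized counts with EV. With *gdf6Y* del9 it had 5420, 4836, 4696, 5013 and 4763, with replicates 1 and 4 in the EV range, and it fell by 0.09 on the log2 scale (SE 0.0269, edgeR adjusted p = 0.0106). The mean with *gdf6Y* was 5087 ± 217 (SD, n = 5), with a log2 fold change of -0.05 (edgeR adjusted p = 0.383). *Npc2* had 7079, 6068, 6552, 6861, 6013 and 6865 with EV and 6404, 5804, 6393, 6458 and 5692 with *gdf6Y* del9. Means were 6573 ± 446 (SD, n = 6) and 6150 ± 370 (SD, n = 5). The groups overlapped widely, and the log2 fold change was -0.09 (SE 0.0263, edgeR adjusted p = 0.00711). This SE is moderated across genes and is smaller than these samples alone would give. With DESeq2 (adjusted p = 0.117) and with edgeR's filterByExpr (adjusted p = 0.114) *Npc2* was not called. With *gdf6Y*, *Npc2* was at 6344 ± 389 (SD, n = 5), and its log2 fold change was -0.05 (edgeR adjusted p = 0.418).

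*Lss* and *Npc1* were called in *gdf6Y* del9 against EV whichever sample was left out. The other calls ended without 1 sample: *Hmgcs1* without EV replicate 1, 4 or 5 or *gdf6Y* del9 replicate 2, 3 or 5; *Stard4* without EV replicate 1 or 4 or *gdf6Y* del9 replicate 3 or 5; *Npc2* without EV replicate 1 or 4 or *gdf6Y* del9 replicate 2 or 5; and *Mvk* without EV replicate 5 or *gdf6Y* del9 replicate 1 or 3.

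Between *gdf6Y* and *gdf6Y* del9, edgeR called 0 of the 31 members, and DESeq2 also called 0. At an unadjusted p below 0.05 there was 1, *Acat2*, the cytosolic thiolase that joins acetyl-CoA units, against 7.88% of all tested genes. Of the 25878 genes tested 1.01% were called, and of the 10083 whose mean count reached 100 the share was 1.96%. *Acat2* had 2598, 2311, 2510, 2507 and 2398 normalized counts with *gdf6Y*, and 2449, 2162, 2342, 2419 and 2297 with *gdf6Y* del9. The groups overlapped, and the log2 difference was 0.08 (SE 0.0346, edgeR adjusted p = 0.375). Stated as intervals, the 95% limits of the 28 members at a mean count of at least 100 lay between -8.41% and 12.8% of the *gdf6Y* del9 level. These limits rest on dispersions moderated across genes. For a single gene they can be narrower than the spread of its own samples would give.

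**Figure D2:**
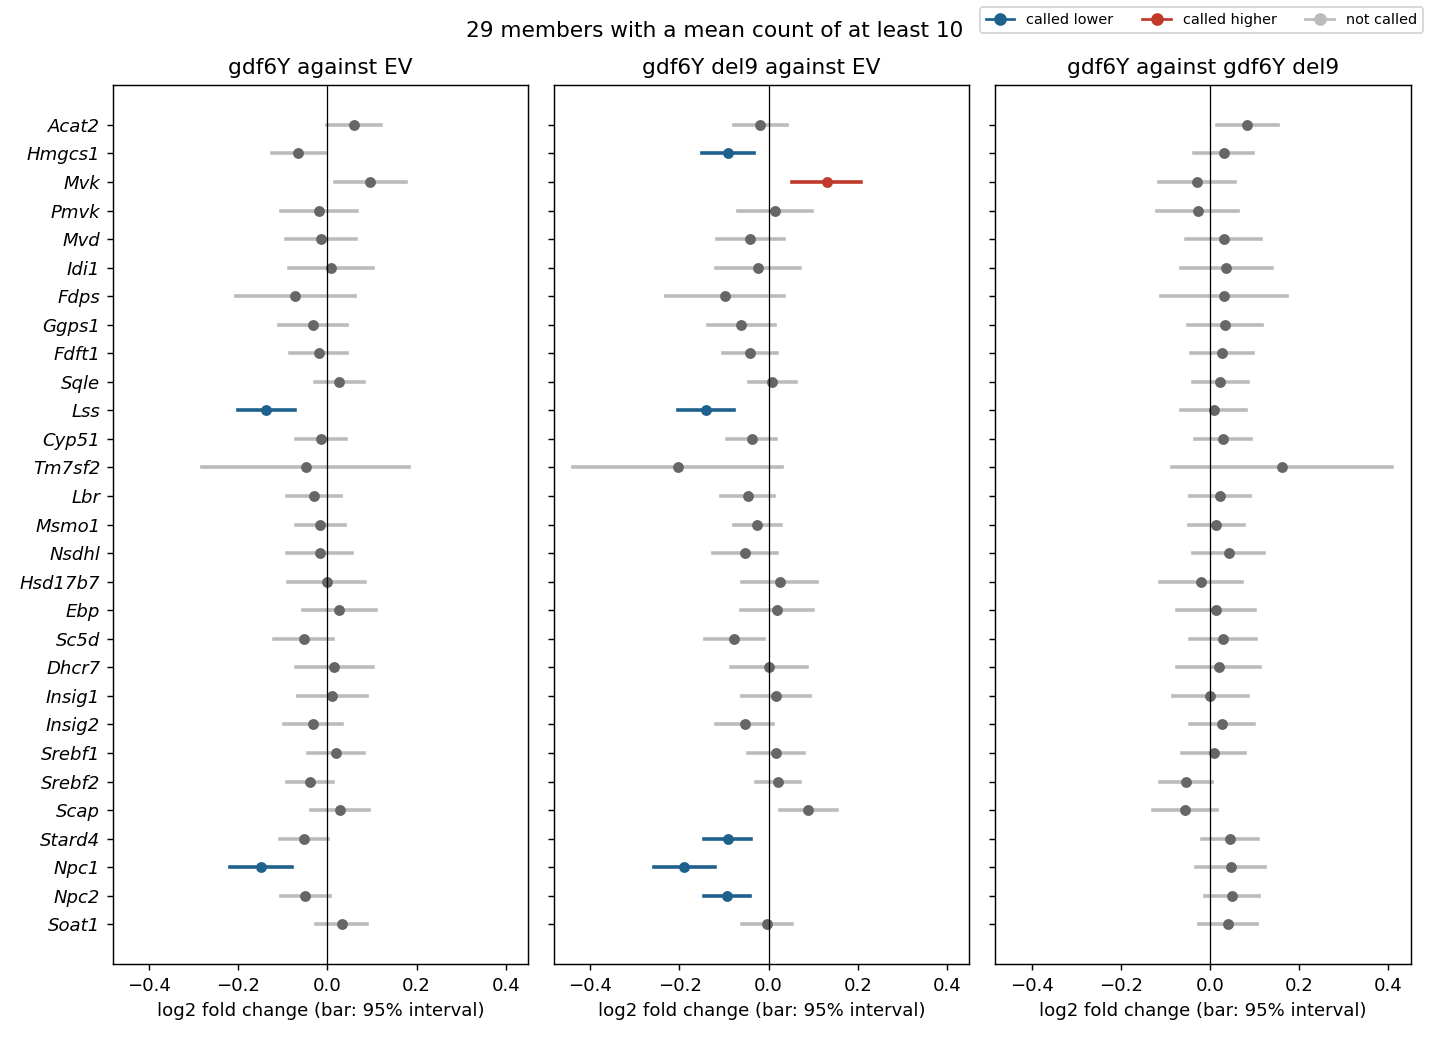
Log2 fold change of the 29 members at a mean count of at least 10 in the 3 comparisons, with 95% intervals, ordered by role. In both comparisons with EV the unadjusted intervals of *Lss*, *Npc1* and *Hmgcs1* lie below 0 and that of *Mvk* above 0, and *Tm7sf2*, the member with the fewest reads of those drawn, has the widest.

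The regulators of the pathway were not called in any comparison. *Srebf2* had 9781 ± 257 normalized counts with EV (SD, n = 6), 9505 ± 435 with *gdf6Y* (SD, n = 5) and 9900 ± 154 with *gdf6Y* del9 (SD, n = 5). *Srebf1* was at 1882 ± 52.6, 1905 ± 43.4 and 1901 ± 57.4 in the same order. *Insig1*, a target of SREBP as well as its anchor, was at 898 ± 52.2, 904 ± 43.4 and 906 ± 50.2. *Insig2* was at 1738 ± 57.2, 1698 ± 72.0 and 1672 ± 50.0. In *gdf6Y* against EV, the 95% intervals of the 5 regulators lay between -0.10 and 0.09 on the log2 scale. *Scap* had 1631, 1601, 1707, 1650, 1651 and 1698 with EV, 1720, 1672, 1773, 1701 and 1565 with *gdf6Y*, and 1655, 1763, 1896, 1741 and 1742 with *gdf6Y* del9. Its log2 fold change in *gdf6Y* del9 against EV was 0.09 and missed the threshold (edgeR adjusted p = 0.0606).

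Of the sterol enzymes, 11 of 12 were not called in either comparison with EV, *Lss* being the exception. *Sqle*, squalene epoxidase and a rate-controlling step, had 4726 ± 116 normalized counts with EV (SD, n = 6), 4809 ± 156 with *gdf6Y* (SD, n = 5) and 4746 ± 122 with *gdf6Y* del9 (SD, n = 5). *Cyp51*, which removes the C14 methyl group of lanosterol, was at 4082 ± 125, 4037 ± 139 and 3967 ± 117. *Dhcr7*, the reductase of 7-dehydrocholesterol, was at 655 ± 12.3, 661 ± 11.3 and 655 ± 31.2. *Nsdhl*, which takes part in removing the C4 methyl groups, was at 1132 ± 38.1, 1116 ± 91.7 and 1089 ± 34.9, and the sterol isomerase *Ebp* at 756 ± 30.3, 769 ± 16.2 and 765 ± 41.8. *Sc5d*, which acts just before *Dhcr7*, had a log2 fold change of -0.08 with *gdf6Y* del9 (edgeR adjusted p = 0.152). For the uncalled members at a mean count of at least 100, the 95% limits lay between -13.3% and 12.9% of the EV level with *gdf6Y* (26 members). With *gdf6Y* del9 they lay between -14.8% and 11.2% (22 members). A miss of the threshold does not show equal levels, and these limits, too, rest on dispersions moderated across genes.

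A score was taken as the mean log2 CPM (CPM, counts scaled to the library's effective size, prior count 2) over the 20 synthesis enzymes. It was 5.54 ± 0.0473 with EV (SD, n = 6), 5.52 ± 0.048 with *gdf6Y* (SD, n = 5) and 5.50 ± 0.0409 with *gdf6Y* del9 (SD, n = 5). The largest of the group differences was -0.0401, for *gdf6Y* del9 less EV, smaller than the SD in either group. Over all 29 members at a mean count of at least 10 the score was 5.92 ± 0.0396 with EV, 5.90 ± 0.0465 with *gdf6Y* and 5.88 ± 0.0326 with *gdf6Y* del9. The difference of *gdf6Y* del9 less EV, -0.0384, was larger than the SD with *gdf6Y* del9 and smaller than that with EV, the samples overlapped, and with the median over members in place of the mean it was 0.011. Within EV the enzyme score ranged over 0.122, within *gdf6Y* over 0.116 and within *gdf6Y* del9 over 0.0997, so the groups overlapped. In each group replicates 1 and 4 had the highest scores and replicates 2 and 5 the lowest. The labels do not say what a replicate number stands for.

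The enzymes differed in how far they shared this movement. After group means were removed, each gene's log2 CPM was correlated over the 16 samples with the mean of the other enzymes. The points share libraries, so the values are descriptive. *Fdft1*, squalene synthase, had the highest Pearson r of the members, 0.919, followed by the decarboxylase *Mvd* with 0.903, the transport gene *Npc2* with 0.876, *Acat2* with 0.867 and *Msmo1* with 0.84. *Fdft1* had 2377, 1998, 2230, 2320, 1935 and 2234 normalized counts in EV samples 1 to 6, 2267, 1998, 2215, 2247 and 2020 with *gdf6Y*, and 2290, 2020, 2048, 2176 and 2050 with *gdf6Y* del9. Its EV samples spanned 1935 to 2377, more than the distance between any group means, which were 2182, 2150 and 2117. The coefficient r was above 0.5 for 13 of the 20 enzymes, with a median of 0.658, and for 6 of 9 other members, with a median of 0.558. Of 10047 other genes whose mean count reached 100, 17% were above 0.5 and the median was -0.00. *Srebf2* and *Srebf1* had 0.644 and 0.635. *Lbr* with -0.724, *Hsd17b7* with -0.632 and *Insig1* with -0.294 ran the other way.

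**Figure D3:**
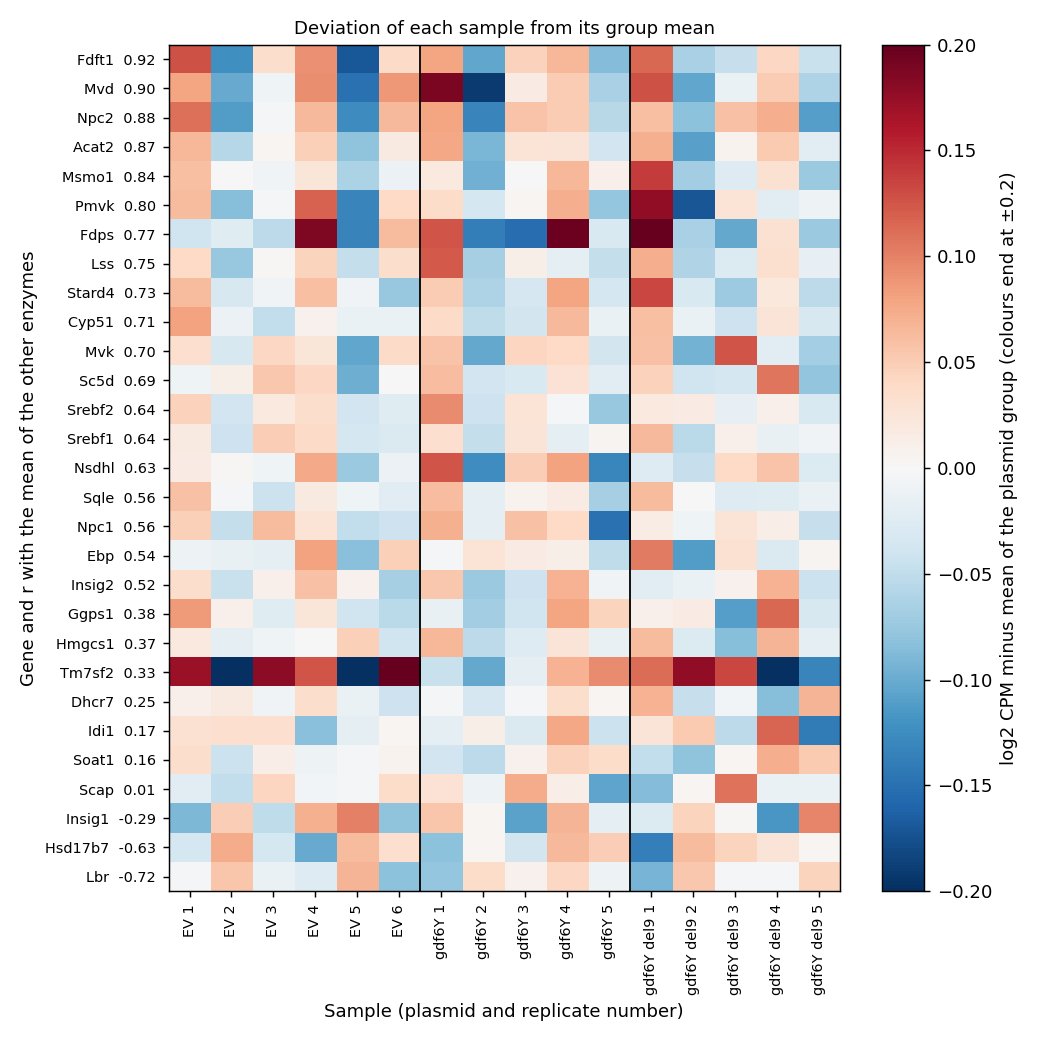
Deviation of each member's log2 CPM from its group mean in the 16 samples, red above and blue below the mean, with members in order of their Pearson r with the other enzymes. *Fdft1* and *Mvd* are high in replicates 1 and 4 and low in 2 and 5, and *Lbr* and *Hsd17b7* lie below their group mean in replicate 1 of each group.

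Related lists hold genes next to the pathway. In *gdf6Y* against EV, 5.08% of all tested genes were called, and 12.9% of those whose mean count reached 100. In *gdf6Y* del9 against EV these shares were 9.25% and 21.7%, and between the plasmids 1.01% and 1.96%. The counts of called genes here and in the next paragraph were not tested against these shares. Of 13 tested fatty acid genes driven by SREBP, 2 were lower with *gdf6Y* than with EV: *Fasn*, fatty acid synthase (log2 fold change -0.13, edgeR adjusted p = 0.000224), and *Acaca*, acetyl-CoA carboxylase (-0.12, edgeR adjusted p = 0.00502). With *gdf6Y* del9 3 others were lower: the elongase *Elovl5* (-0.11, edgeR adjusted p = 0.0013) and the desaturases *Scd1* (-0.08, 0.0331) and *Scd2* (-0.07, 0.0275). Compared directly between the plasmids, these 5 genes missed the threshold, *Fasn* with -0.10 (edgeR adjusted p = 0.0553) and *Scd2* with 0.09 (edgeR adjusted p = 0.0788) coming nearest. Of 14 genes of SREBP processing and sterol sensing, *Marchf6*, a ubiquitin ligase of the endoplasmic reticulum that acts on squalene epoxidase, was lower with either plasmid (-0.11 and -0.12, edgeR adjusted p = 0.00408 and 0.000982). *Sec23a*, a COPII coat protein, was lower with *gdf6Y* del9 (-0.11, edgeR adjusted p = 0.00838).

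Of 15 genes of intracellular sterol transport and uptake, the lipoprotein receptor *Lrp1* was called in all 3 comparisons. It fell from 11956 normalized counts with EV to 9845 with *gdf6Y* (-0.28, edgeR adjusted p = 3.06e-17) and to 10826 with *gdf6Y* del9 (-0.14, edgeR adjusted p = 1.72e-06), and *gdf6Y* was below *gdf6Y* del9 (-0.13, edgeR adjusted p = 0.00168). *Vldlr*, another receptor of this family, was lower with *gdf6Y* del9 than with EV (-0.20, edgeR adjusted p = 1.08e-10), and higher with *gdf6Y* than with *gdf6Y* del9 (0.14, edgeR adjusted p = 0.00315). *Tmem97*, which binds NPC1, was higher with *gdf6Y* del9 than with EV (0.09, edgeR adjusted p = 0.0353). Of 7 tested LXR and oxysterol genes 1 was called, *Abca2*, lower with *gdf6Y* than with EV (-0.15, edgeR adjusted p = 0.00147). Of 10 tested genes of the isoprenoid branches, *Pdss1*, which builds the ubiquinone side chain, was higher with *gdf6Y* (0.20, edgeR adjusted p = 0.00293) and with *gdf6Y* del9 (0.34, edgeR adjusted p = 1.09e-09). In *gdf6Y* del9 against EV, *Fnta*, the shared subunit of protein prenyltransferases, was higher (0.09) and *Pggt1b*, which pairs with it, was lower (-0.14).

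The cells carried part of the Sertoli markers. *Gata4* had 831 ± 6.04 and *Kitl* 707 ± 19.6 normalized counts with EV (SD, n = 6), while *Wt1* had no read, *Fshr* and *Cldn11* at most 1 per sample and *Amh* 3 to 13. The sum over the 9 Sertoli markers is mostly *Gata4* and *Kitl*. It was 1641 to 1719 with EV, 1458 to 1575 with *gdf6Y* and 1533 to 1695 with *gdf6Y* del9. *Gata4* was lower with *gdf6Y* than with EV (-0.20, edgeR adjusted p = 9.98e-05). Of the other cell types, the steroidogenic list of 6 genes summed to between 19.3 and 35.8 with *Cyp17a1*, *Hsd3b1* and *Lhcgr* at 0. The 4 macrophage genes summed to 36.5 to 68.0, the 3 endothelial genes to 4.37 to 12.3 and the 3 germ cell genes to at most 5.47. The 3 peritubular genes, nearly all *Acta2*, summed to 4440 to 4666 with EV, 4647 to 5013 with *gdf6Y* and 4524 to 4785 with *gdf6Y* del9. The sums of these 5 lists overlapped between the groups, while the Sertoli sums of *gdf6Y* and EV did not. The part of the lower Sertoli sum in the members' values was not tested.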

How the data were processed

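RNA-Seq of transfected TM4 cells was analysed in 16 samples. Other samples were not analysed here. The authors deposited counts of reads per gene, without normalization. Per the submitters' processing notes, STAR 2.7.10a placed the reads on GRCm39, UMI-tools removed duplicates, and uniquely mapped reads were counted per strand with featureCounts 2.0.3. Discarding multi-mapping reads lowers genes with near-identical copies. Reads that overlapped several genes were discarded as well.

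Counts were compared in edgeR 4.0.16 (R 4.3.3) with TMM scaling and the quasi-likelihood test, fitting only the 2 groups compared, with no covariate. Genes with at least 1 count in a comparison were kept, and an adjusted p-value (Benjamini-Hochberg, all genes) below 0.05 was called. The steps were tested on simulated counts. Symbols and lengths came from GENCODE, which matched 56017 of 56748 identifiers. Members and lists were chosen with earlier results of these data known. Per-sample values are given for called members, the regulators are always named, and up to 3 called genes per list and comparison are named. *Acat2*, *Fdft1* and *Scap* were chosen for per-sample values after these were seen. Alternatives were DESeq2 1.42.0, other scalings, stricter count filters, all groups in a model, the replicate block, gene length offsets, another prior count or the median for scores, and leaving out each sample. A few genes are not reported here.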

Additional observations from a re-analysis of the deposited data

How the results depend on the processing

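*Lss* was called lower under all 20 alternatives in each comparison with EV, and *Npc1* under 19 of 20 with *gdf6Y* and 20 of 20 with *gdf6Y* del9. In *gdf6Y* del9 against EV, *Hmgcs1* was called under 14, *Mvk* under 17, *Stard4* under 15 and *Npc2* under 13 of 20. No called value changed sign under the alternatives run. With gene length offsets, *Mvk* was also called higher with *gdf6Y* (1 member higher), and *Scap* joined *Mvk* with *gdf6Y* del9 (2 higher). With at least 10 counts in every sample, 3 members were lower with *gdf6Y* del9, without *Stard4* (adjusted p = 0.0528) and *Npc2* (adjusted p = 0.117), and with the median over members in place of the mean the score difference of all members was 0.011, against -0.0384.

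In *gdf6Y* against *gdf6Y* del9, 261 genes were called, with DESeq2 81, with filterByExpr 45 and with at least 10 counts in every sample 44. The cause was not tested. Leaving out each sample in turn gave 794 to 1751 genes called in *gdf6Y* against EV, 160 to 441 in *gdf6Y* against *gdf6Y* del9 and 1692 to 2715 in *gdf6Y* del9 against EV. It gave 1 to 2 members lower with *gdf6Y*, 2 to 6 lower with *gdf6Y* del9 and 0 to 1 higher with *gdf6Y* del9. The score difference of all members was then -0.0323 to -0.00554, 0.00614 to 0.0329 and -0.0505 to -0.0304, in the same order.

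Replicate numbers are shared between groups, but the labels do not say what they pair, and the main test did not use them. Over 12584 genes, deviations of same-numbered samples correlated between -0.0282 and 0.198. The enzyme score, however, was highest in replicates 1 and 4 and lowest in replicates 2 and 5 of each group. With the replicate block, 2061 genes were called in *gdf6Y* against EV (1338 without) and 661 in *gdf6Y* against *gdf6Y* del9. *Stard4* was then called lower with *gdf6Y* as well (-0.07, edgeR adjusted p = 0.0473), which made 3 members lower, and 2 members, *Mvk* and *Scap*, were higher with *gdf6Y* del9. A *gdf6Y* sample correlated best with its own number in EV in 3 of 5 cases and in *gdf6Y* del9 in 4 of 5, and a *gdf6Y* del9 sample with its own number in EV in 1 of 5. With the replicate block and gene length offsets together, 1 member was higher and 4 were lower with *gdf6Y* (*Hmgcs1*, *Lss*, *Stard4* and *Npc1*). In *gdf6Y* against *gdf6Y* del9, 639 genes and 1 member (*Acat2*, higher) were then called. With *gdf6Y* del9 against EV, 2 members were higher and 6 lower, *Sc5d* joining the 5 lower members of the main test.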
